A study of Arabidopsis thaliana with 47 samples.

Results

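MORC7 chromatin immunoprecipitation was compared between dms3 and wild-type plants in 6 ChIP-seq libraries, 3 for each genotype, of the 47 samples in the series. The members are the deposited peak lists labelled dms3MORC7-FLAG (replicates 1, 2 and 3) and MORC7-FLAG (replicates 1, 2 and 3). The MORC7-FLAG plants, called wild type here, carry MORC7 with a triple FLAG tag under its own promoter in the morc7-1 insertion mutant, so the tagged protein replaces the native one. The dms3 plants received the same transgene by a cross into dms3-4, an insertion allele, and were F2 or F3 plants homozygous for dms3 and heterozygous or homozygous for the transgene. Transgene dose was therefore not fixed in dms3, and the morc7 genotype of these plants is not given in the sources used here. Both groups were Columbia-0 plants of 5 to 6 weeks, from which floral tissue was taken and precipitated with anti-FLAG M2. The labels do not state that replicates came from separate plantings, so p-values measure only the spread between these libraries, and the dms3 mutation itself cannot be checked in peak lists.

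MORC proteins are ATPases that bind and compact DNA and are needed for full silencing of transposons and repeats in plants. DMS3 is a hinge-domain protein that, with DRD1 and RDM1, forms the DDR complex, which brings RNA polymerase V to chromatin in RNA-directed DNA methylation (RdDM). In this pathway RNA polymerase IV makes the precursors of small interfering RNAs, and polymerase V makes the scaffold transcripts to which they guide DNA methylation. The comparison asked which MORC7 sites were still found when the DDR complex, and with it polymerase V recruitment, was missing.

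A peak was used where its deposited −log10 q value exceeded 2 and its fold enrichment over background, as given by the peak caller MACS2, exceeded 2. Wild-type replicates 1, 2 and 3 had 8173, 8259 and 7952 such peaks on the 5 nuclear chromosomes, and dms3 replicates 1, 2 and 3 had 4971, 7786 and 5526. All dms3 lists were thus shorter than all wild-type lists (two-sided exact permutation test, p = 0.1, which is the smallest value that 3 libraries against 3 can give). Read totals are not part of the lists, so depth is unknown, and differences in depth and in enrichment cannot be told apart from the genotype in the length of a list. The lists have 2 forms. Wild-type replicate 1 and dms3 replicates 2 and 3 give several summits for many intervals and no −log10 q value below 2.00. Wild-type replicates 2 and 3 and dms3 replicate 1 give 1 summit for each interval and go down to 1.31. Wild-type replicate 2 stood apart from the rest, with a median peak width of 163 bp against 649 to 981 bp in the other lists, and a median −log10 q of 3.94 against 24.4 to 42.8. The form of a list cuts across the genotypes, so values within each form are given beside the pooled ones. The label fields of dms3 replicates 2 and 3 also differ from those of the other 4 libraries, and as that pair holds dms3 libraries only, a within-pair comparison with wild type could not be made.

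Sequences at the summits of the highest-ranked regions show the DNA at the sites described here, not the make-up of each class. All were read from the TAIR10 chromosomes, 120 bases around the summit on the forward strand, and each is named by the gene at or nearest to the summit. Capitals mark CG dinucleotides, the sites of CG methylation. The first set gives the 3 regions with the highest fold ranks among those with a peak in all 6 lists, all of them in pericentromeres.
AT2G04940, chr2:1740747-1740866: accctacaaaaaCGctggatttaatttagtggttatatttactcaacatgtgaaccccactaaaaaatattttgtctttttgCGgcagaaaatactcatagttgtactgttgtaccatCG
AT2G05445, chr2:3531315-3531434: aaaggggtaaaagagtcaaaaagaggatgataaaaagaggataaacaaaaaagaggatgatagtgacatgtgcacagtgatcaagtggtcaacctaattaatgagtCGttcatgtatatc
AT2G10590, chr2:4121346-4121465: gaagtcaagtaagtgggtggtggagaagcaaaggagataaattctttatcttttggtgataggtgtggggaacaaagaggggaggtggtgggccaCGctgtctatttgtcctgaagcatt
The second set gives the 3 highest-ranked regions with a peak in all 3 wild-type lists and in no dms3 list.
AT5G37680, chr5:14971443-14971562: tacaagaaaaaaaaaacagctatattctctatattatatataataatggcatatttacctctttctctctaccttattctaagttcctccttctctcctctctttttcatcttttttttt
AT2G41500, chr2:17307656-17307775: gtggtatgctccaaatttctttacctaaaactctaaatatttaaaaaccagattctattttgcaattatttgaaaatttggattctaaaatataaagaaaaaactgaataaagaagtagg
AT4G03540, chr4:1568590-1568709: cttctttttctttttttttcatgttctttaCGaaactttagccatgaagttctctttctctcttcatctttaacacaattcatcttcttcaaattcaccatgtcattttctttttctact
The 3 stretches lost in dms3 held 0, 0 and 1 CG and had a GC content of 26.7%, 24.2% and 29.2%. The 3 kept stretches held 3, 1 and 1 CG with a GC content of 34.2%, 35.0% and 46.7%. Over whole classes the order for CG was the reverse, with medians of 2.00 in lost and 1.67 in kept regions in each 100 bases.

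The third set shows 5 regions that were new in dms3 with a peak in all 3 dms3 lists. They were chosen because they share a sequence, not by rank. Each stretch is placed by that sequence and not by the summit, and is printed from the strand on which it reads in the same direction. Capitals here mark bases in words of 20 letters that at least 2 new regions hold.
AT1G44935, chr1:16988718-16988837, forward strand: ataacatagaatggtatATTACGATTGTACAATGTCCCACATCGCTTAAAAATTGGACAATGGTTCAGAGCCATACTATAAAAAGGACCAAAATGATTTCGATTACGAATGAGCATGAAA
AT1G56080, chr1:20973082-20973201, forward strand: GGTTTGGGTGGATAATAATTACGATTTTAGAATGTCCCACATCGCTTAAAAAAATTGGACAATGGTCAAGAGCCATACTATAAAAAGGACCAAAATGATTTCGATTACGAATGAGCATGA
AT5G35830, chr5:14003781-14003900, forward strand: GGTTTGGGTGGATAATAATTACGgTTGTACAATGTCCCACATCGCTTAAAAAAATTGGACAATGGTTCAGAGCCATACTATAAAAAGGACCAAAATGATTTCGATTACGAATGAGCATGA
AT5G37442, chr5:14847600-14847719, forward strand: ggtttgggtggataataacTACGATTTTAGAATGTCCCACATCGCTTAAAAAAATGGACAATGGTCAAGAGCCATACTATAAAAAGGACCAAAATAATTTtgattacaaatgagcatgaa
AT5G38435, chr5:15386730-15386849, reverse strand: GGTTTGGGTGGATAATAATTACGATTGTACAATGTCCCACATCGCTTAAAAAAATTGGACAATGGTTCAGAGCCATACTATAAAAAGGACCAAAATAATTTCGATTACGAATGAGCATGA
Between 67.5% and 100% of the bases of these 5 stretches fell in shared words, and the regions lie on chromosomes 1 and 5. The choice of the regions by shared words fixed a high share. Of the 17 new regions with a peak in all 3 dms3 lists, 7 shared a word of 20 letters with another of the 17.

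Most wild-type MORC7 regions were found again in dms3. A wild-type region is a merged interval with a peak in at least 2 wild-type lists, and of 6424 such regions 4705 (73.2%) had a peak in at least 2 dms3 lists and are called kept. A further 833 regions had a peak in 1 dms3 list, and 886 (13.8%) had none and are called lost. The lists of dms3 replicates 1, 2 and 3 held a peak at 63.7%, 82.4% and 66.4% of the wild-type regions. Regions supported by all 3 wild-type lists were kept in 2515 of 2732 cases (92.1%), and 82 of them were lost. Over the 13387 merged intervals of the 6 lists, 82 (0.613%) had a peak in all wild-type lists and no dms3 list, and 17 (0.127%) had a peak in all dms3 lists and no wild-type list. In the other direction, 108 of the 5748 dms3 regions (1.88%), each with a peak in at least 2 dms3 lists, had no wild-type peak and are called new. Of these, 17 had a peak in all 3 dms3 lists. Within the lists that give several summits, 61.6% of the intervals of wild-type replicate 1 had a peak in both dms3 replicates 2 and 3. Within the lists that give 1 summit, regions needed a peak in both wild-type replicates 2 and 3, and 82.6% had one in dms3 replicate 1. These 2 shares follow unlike rules and do not compare the forms of list. The count of new regions varied with the lists used. It was 561, 150 and 481 without wild-type replicates 1, 2 and 3. The direction of this change was fixed by the rule, as fewer wild-type lists were left to hold a peak. Without dms3 replicates 1, 2 and 3 the count was 87, 19 and 38. New regions thus mostly had peaks in both dms3 replicates 2 and 3, the pair whose label fields differ and which holds no wild-type library. Leaving out a library also asks for a peak in both remaining lists of its genotype, so a lower count without a dms3 list was mostly fixed too.

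Recovery of wild-type regions by the dms3 lists was compared with that by the wild-type lists themselves. Regions defined by 2 wild-type lists were looked up in the wild-type list left out and in each dms3 list, over sets of 2849, 5324 and 3870 regions. Wild-type replicates 1, 2 and 3 recovered 95.9%, 51.3% and 74.6%, and dms3 replicates 1, 2 and 3 recovered 74.2%, 89.4% and 77.3% as means over the sets. The dms3 mean exceeded the wild-type mean by 6.33 points (73.9% ± 22.3 in wild type and 80.3% ± 8.04 in dms3, SD, n = 3, two-sided exact permutation test, p = 0.8). Each wild-type list was scored on its own set, each dms3 value was a mean over the 3 sets, and the 3 sets differed. The 6 values are therefore not built alike. Their SDs are not comparable, and the p-value does not measure a difference between the genotypes exactly. On the set of wild-type replicate 1 (95.9%) the dms3 lists recovered 82.6%, 92.8% and 84.0%, all below it. On the set of wild-type replicate 2 (51.3%) they recovered 74.0%, 83.7% and 71.5%, all above it. On the set of wild-type replicate 3 (74.6%) they recovered 65.9%, 91.6% and 76.3%, on both sides of it. On the same set and within lists of several summits, the difference of dms3 from wild type was -7.48 points, and within lists of 1 summit it was -8.71 and 22.7 points on the 2 sets. Without wild-type replicate 2 the difference was -8.09 points. Pairs of lists of 1 genotype shared 48.6% of their merged intervals on average, and pairs across genotypes 46.9% (difference of 1.72 points, exact permutation test over libraries, p = 0.7). The closest pair across all 6 lists was wild-type replicate 1 with dms3 replicate 2, at 69.3%, and the least alike were wild-type replicates 2 and 3, at 24.7%.

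The share of regions kept in dms3 rose with their wild-type fold rank. Regions were ranked by the mean percentile of their peaks within the wild-type lists and cut into 4 rank classes of 1606, from 1 (lowest) to 4 (highest). In class 1, 661 regions (41.2%) were kept and 502 (31.3%) were lost. In class 2 69.4% were kept, in class 3 86.2%, and in class 4 1544 (96.1%), where 32 regions (1.99%) were lost. The same order held for regions with peaks in all 3 wild-type lists, with 68.2%, 86.7%, 95.0% and 98.0% kept, and for those with peaks in 2, with 35.6%, 61.1%, 79.2% and 90.3%. Kept shares from class 1 to class 4 were 42.2%, 67.9%, 86.1% and 98.6% in pericentromeres and 41.0%, 69.7%, 86.3% and 94.5% on the arms. In class 1 pericentromeric regions were lost in 38.4% of cases and arm regions in 30.3%.

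**Figure D1:**
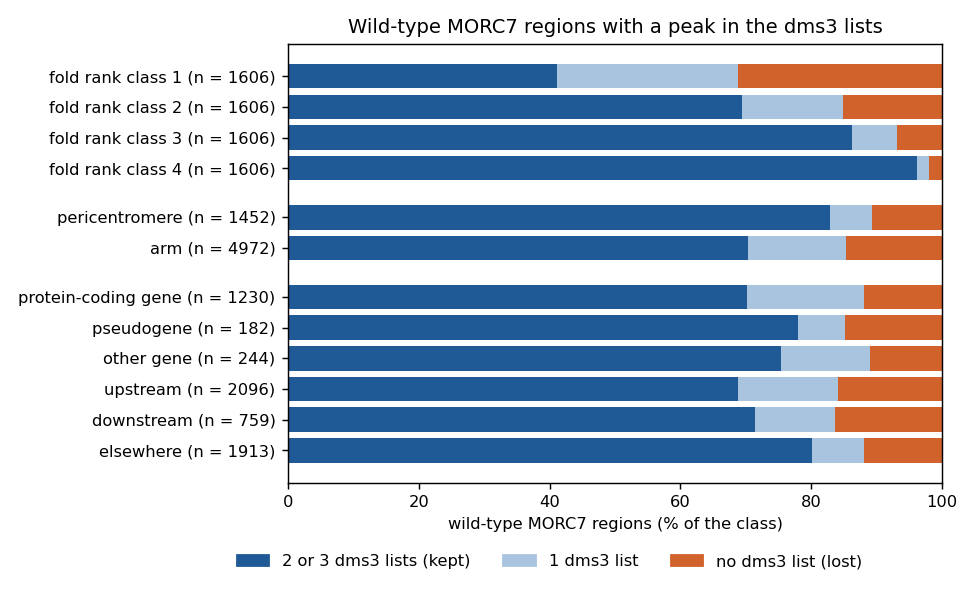
Bars give the percentage of wild-type MORC7 regions with a peak in 2 or 3 dms3 lists, in 1 and in none, by class of wild-type fold rank (1 is the lowest of 4), chromosome region and gene context, with the number of regions beside each class. The kept share runs from 41.2% in rank class 1 to 96.1% in class 4.

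The wild-type lists showed such a gradient among themselves. In the held-out design, recovery in rank class 4 minus that in class 1 was 58.0, 22.2 and 45.9 points in dms3 replicates 1, 2 and 3. In wild-type replicates 1, 2 and 3 it was 13.3, 54.5 and 63.2 points. Again each wild-type value came from 1 set and each dms3 value was a mean over 3, so the test below compares unlike values. The groups overlapped, and the dms3 mean differed from the wild-type mean by -1.63 points (two-sided exact permutation test, p = 1). In class 4 dms3 lists recovered 98.5%, 98.8% and 97.6% of the held-out regions, and wild-type lists 100%, 89.9% and 100%. In class 1 dms3 lists recovered 40.5%, 76.6% and 51.6%, and wild-type lists 86.7%, 35.5% and 36.8%. On the same sets, the difference was 9.97 points within lists of several summits and 5.42 points within lists of 1. The difference in gradient changed sign when any 1 of 4 libraries was left out (each wild-type replicate and dms3 replicate 2), with values from -9.58 to 8.28 points over all 6 omissions.

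**Figure D2:**
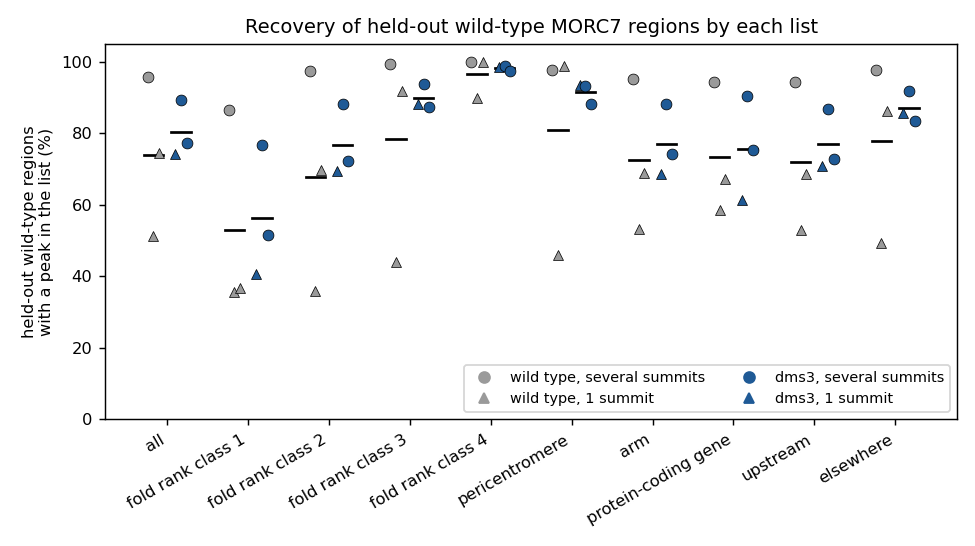
Each point is 1 list, with the percentage of held-out wild-type regions in which it has a peak on the y axis and classes of regions on the x axis, circles for lists with several summits, triangles for lists with 1, and a line at the mean of each genotype. The dms3 points lie between 74.2% and 89.4% over all regions and between 97.6% and 98.8% in rank class 4.

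Over all regions, those in the gene-poor pericentromeres were kept more often than those on the arms, but at equal fold rank the shares were close, with the arms higher in classes 2 and 3. Class 4 held 643 of the 1452 pericentromeric and 963 of the 4972 arm regions. Pericentromeres were taken as the run of 100 kb windows around the lowest coding density of each chromosome, and 1204 of the wild-type regions in them (82.9%) were kept, against 3501 on the arms (70.4%). Lost regions made up 10.7% and 14.7%. By chromosome, the kept share ran from 71.2% on chromosome 1 to 76.1% on chromosome 2. The contrast came largely from dms3 replicate 1, which held a peak at 85.1% of the pericentromeric and 57.5% of the arm regions, while the values were 84.2% and 81.9% in replicate 2 and 75.1% and 63.8% in replicate 3. In the held-out design, recovery in pericentromeres minus that on arms was 24.9, 4.83 and 13.9 points in dms3 and 2.51, -7.44 and 29.9 points in wild type. The groups overlapped (p = 0.7, two-sided exact permutation test). Here too the test set wild-type values from 1 set each against dms3 means over 3 sets. Over all peaks, 30.7%, 19.8% and 24.8% of the dms3 lists and 21.7%, 15.8% and 28.6% of the wild-type lists lay in pericentromeres, a difference of 3.07 points (p = 0.5, exact permutation test). It was 0.597 points within lists of several summits and 8.53 points within lists of 1, was -0.0195 points without wild-type replicate 2, and was 0.0146 points with all deposited peaks.

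By gene context, kept regions lay away from genes more often than lost ones over all regions, but not within pericentromeres. Each region was placed by its summit in a protein-coding gene, a pseudogene or another gene, within 1000 bp upstream or downstream of a protein-coding gene, or elsewhere. Regions elsewhere were kept in 1532 of 1913 cases (80.1%), and those upstream of genes in 1441 of 2096 (68.8%). Regions within protein-coding genes were kept in 864 of 1230 cases (70.2%), and regions in pseudogenes in 142 of 182 (78.0%). Among the 886 lost regions, 333 (37.6%) lay upstream of a gene and 228 (25.7%) elsewhere, while 30.6% of kept regions lay upstream and 32.6% elsewhere. Of the 108 new regions, 42 (38.9%) lay inside protein-coding genes, against 18.4% of kept, 16.6% of lost and 21.6% of all dms3 regions, and 25 (23.1%) lay upstream. These shares of new regions rest on few regions and were not tested. They rest mostly on dms3 replicates 2 and 3, with 25.9% and 23.6% of all their peaks inside protein-coding genes, against 14.5% in replicate 1. Within arms alone, upstream regions were kept in 66.8% of cases and regions elsewhere in 77.2%. Within pericentromeres, 681 of the 1204 kept and 93 of the 156 lost regions lay elsewhere. There, 11.5% of regions elsewhere, 8.61% of upstream regions and 3.88% of those in protein-coding genes were lost. Contexts were not compared at equal fold rank.

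Peaks upstream of genes took a smaller share of every dms3 list. They were 28.2%, 28.4% and 26.6% of the peaks in dms3 replicates 1, 2 and 3, and 29.9%, 34.6% and 30.1% in wild-type replicates 1, 2 and 3. The groups did not overlap, with a difference of -3.76 points (27.7% ± 0.964 in dms3 and 31.5% ± 2.69 in wild type, SD, n = 3). The two-sided exact permutation test gave p = 0.1, the smallest it can give, and 0.6 after Benjamini-Hochberg adjustment over 12 measures compared between the lists. The difference was -2.32 points within lists of several summits, -4.17 points within lists of 1 and -2.21 points without wild-type replicate 2. Peaks inside protein-coding genes made up 14.5%, 25.9% and 23.6% of the dms3 lists and 23.4%, 26.2% and 15.7% of the wild-type lists, with no separation (difference of -0.424 points, exact permutation test, p = 0.8). The lowest values were those of dms3 replicate 1 and wild-type replicate 3, the lists with the widest median peaks (971 and 981 bp).

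Lost regions were narrower and weaker in wild type than kept ones, and most had a dms3 peak under the threshold. Their median width was 761 bp and their median fold percentile 36.1, against 1247 bp and 63.3 for kept regions. Of the 886 lost regions, 665 (75.1%) overlapped a deposited dms3 peak under the threshold in at least 1 list and 420 (47.4%) in at least 2. This left 221 regions with no deposited dms3 peak at all. Among the 82 regions lost from all 3 wild-type lists, 65 had such a weaker dms3 peak and 17 had none. The loss also followed which wild-type lists had defined a region. Those found in replicates 2 and 3 alone were lost in 61 of 118 cases (51.7%), those in replicates 1 and 3 alone in 579 of 2592 (22.3%), and those in replicates 1 and 2 alone in 164 of 982 (16.7%).

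The lost region with the highest wild-type fold rank lay at chr5:14970868-14972246, with its summit 160 bp upstream of AT5G37680 (ARLA1A), which encodes a small GTPase related to ADP-ribosylation factors. Its fold enrichment was 5.65, 3.10 and 7.51 in wild-type replicates 1, 2 and 3. The dms3 lists held peaks there with folds of 1.97, 1.93 and 1.60, all under the threshold of 2. The next region, chr2:17307344-17308663, had its summit 290 bp upstream of AT2G41500 (LIS, or LACHESIS, a splicing factor needed for cell fate in the female gametophyte). Its wild-type folds were 4.06, 2.86 and 5.29, and no dms3 list held any deposited peak there. At chr4:1568092-1569204, 1287 bp upstream of AT4G03540, wild-type folds were 4.71, 2.63 and 6.19, while dms3 replicates 2 and 3 had peaks of 1.84 and 1.56 and replicate 1 had none. These 3 regions are those whose sequences are shown above. The region in AT5G55250 (IAMT1, which methylates the auxin indole-3-acetic acid) had wild-type folds of 4.33, 2.57 and 6.54 and a single weaker dms3 peak of 1.59. The other 4 of the 8 lay near AT3G13225, AT4G05631, AT4G11320 and AT5G07785, with wild-type folds between 2.55 and 5.72 and dms3 folds under the threshold between 1.59 and 2.00 or no peak. Of the 8, 7 lay on arms, as did 4972 of all 6424 wild-type regions, and 7 had a peak in the second MORC4 list, which held one at 61.0% of the 82 regions of this class and 50.9% of all wild-type regions.

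The new regions were weak, with a median fold percentile within the dms3 lists of 20.2 against 50.2 for all dms3 regions. Of the 108, 95 overlapped a deposited wild-type peak under the threshold in at least 1 list, and 32 (29.6%) in at least 2. Of the 17 new regions with a peak in all 3 dms3 lists, 9 lay elsewhere (52.9%, against 32.3% of all dms3 regions). Inside protein-coding genes lay 5 (29.4%, against 21.6%). These shares of 17 regions were not tested. A weaker wild-type peak was present at 12 of them in at least 1 list and at 4 in at least 2. The highest ranked lay at chr5:14846602-14848070, 1289 bp from the pseudogene AT5G37442, with dms3 folds of 4.21, 3.90 and 3.71 and a wild-type peak under the threshold only in replicate 3 (1.82). The second, chr5:14002820-14004231, lay in the pericentromere, 2383 bp upstream of AT5G35830, with dms3 folds of 3.90, 3.60 and 3.41 and 1.93 in wild-type replicate 3. The third, chr5:15386300-15387490, lay 1210 bp upstream of AT5G38435 (SPH8, of the family of plant self-incompatibility protein homologues), with dms3 folds of 2.57, 4.73 and 4.36 and no deposited wild-type peak. At chr1:16988540-16989230, 2928 bp from AT1G44935 (SADHU9-1, a pseudogene of the Sadhu retroposons), dms3 folds were 2.98, 2.86 and 2.56, again with no wild-type peak. The remaining 4 of the 8 named regions lay near AT5G48910 (LPA66, a pentatricopeptide repeat protein of chloroplast RNA editing), AT1G22530 (PATL2, a patellin of membrane trafficking), AT2G04180 and AT1G48020 (PMEI1, a pectin methylesterase inhibitor), with dms3 folds between 2.08 and 3.57. For AT1G22530, AT5G37442, AT5G35830 and AT2G04180 the only wild-type list with any peak was replicate 3, and for AT5G48910 and AT1G48020 replicates 1 and 3 had one, each below a fold of 2.

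New regions shared sequence. Words of 20 letters from the 300 bases around the summits, read on both strands, linked 8 of the 108 new regions into 1 group, among them the 5 regions printed above. Another 5 groups held 2 or 3 regions each, so that 20 regions (18.5%) shared a word with another new region. Such sharing was not particular to new regions, since 33.9% of the 886 lost and 46.9% of the 4705 kept regions shared a word within their class, though larger classes give more pairs. The common sequence of the 8 regions was found at 34 places on the 5 chromosomes, counting places with at least 20 of its 343 words within gaps of 300 bp. These places were chosen after the peaks were seen, through regions that had dms3 peaks and no wild-type peak. Without the 8 places that chose the sequence, 26 remained, of which 12, 6 and 4 had a peak in dms3 replicates 1, 2 and 3 and 1, 0 and 4 in wild-type replicates 1, 2 and 3. The lists of dms3 replicate 3 and wild-type replicate 3 thus had the same number. Among the 26, 13 had a peak in more dms3 than wild-type lists and none in fewer, and 5 (19.2%) had one in at least 2 dms3 lists. Over the 13387 merged intervals of the 6 lists, 586 had a peak in 1 dms3 list alone and 4557 in 1 wild-type list alone. Every such interval holds a peak and not all of the 26 places do, so the shares are not comparable and were not tested. At the 26 places the counts were 6 and 4 against 1 in lists of several summits and 12 against 0 and 4 in lists of 1. Over all 34 places, where the choice of the 8 fixes part of the difference, the dms3 counts were 20, 14 and 9 and the wild-type counts 1, 0 and 4. With all deposited peaks they were 25, 19 and 10 in dms3 and 2, 0 and 13 in wild type, so that the groups overlapped.

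**Figure D3:**
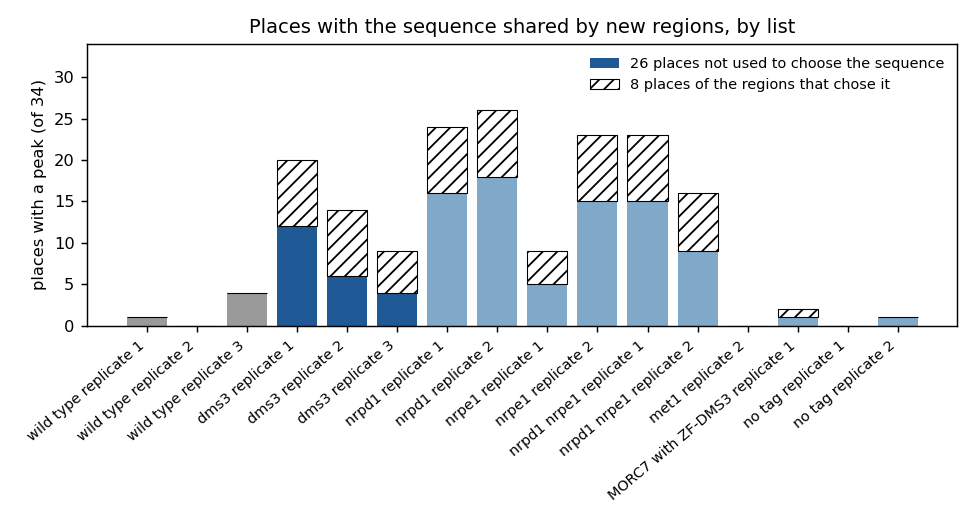
Bars give the number of genomic places with the common sequence of 8 new regions that overlap a peak, for each MORC7 list and for the 2 lists without a tag, with filled bars for the 26 places not used to choose the sequence and hatched bars for the 8 that were. At the 26 places the 3 dms3 lists have 4 to 12 peaks and the 3 wild-type lists 0 to 4.

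Apart from the 5 printed regions, 4 of these places had a peak in all 3 dms3 lists, each also with a peak in 1 wild-type list. All 8 places with a peak in at least 2 dms3 lists and none in wild type had chosen the sequence. The presence of a wild-type peak at the other 4 was therefore largely fixed by the choice. At chr2:5871041-5871685, 995 bp upstream of AT2G13980, dms3 folds were 4.27, 4.43 and 4.34, and wild-type replicate 3 had 2.30. At chr3:10510414-10510703, near AT3G28180, dms3 folds were 3.08, 4.50 and 4.28, and wild-type replicate 1 had 2.15. At chr3:12660815-12661526, near AT3G31005 in the pericentromere, dms3 folds were 3.05, 6.09 and 2.51, and wild-type replicate 3 had 2.38. In these 3 every dms3 fold was above the wild-type value. At chr5:10210567-10211016, inside AT5G28237, dms3 folds of 2.63, 3.04 and 2.29 overlapped the 2.58 of wild-type replicate 3.

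In the other MORC7 lists of the series, peaks were more frequent at kept than at lost regions. Over the 4705 kept regions, peaks were present at 77.2% and 79.0% in the 2 nrpd1 lists (nrpd1 lacks polymerase IV), at 79.2% and 89.6% in the 2 nrpe1 lists (nrpe1 lacks polymerase V) and at 81.2% and 56.2% in the nrpd1 nrpe1 lists. Over the 886 lost regions these 6 lists gave 34.4%, 42.0%, 10.2%, 15.8%, 24.5% and 4.85% in the same order. Over all 6424 wild-type regions they gave 65.8%, 68.5%, 63.0%, 74.3%, 67.1% and 42.9%. Over all 5748 dms3 regions the 6 lists gave 70.8%, 72.8%, 71.2%, 82.8%, 75.1% and 50.7%, and over the 108 new regions 29.6%, 31.5%, 18.5%, 40.7%, 32.4% and 19.4%. MORC7 was also precipitated in plants with ZF-DMS3, a zinc-finger fusion of DMS3 in which DMS3 is present. Its peaks there covered 91.8% of all wild-type, 96.6% of kept, 74.5% of lost and 25.9% of new regions. That list held 9196 peaks, against 4048 to 7212 in the 6 lists above, so its shares are not comparable with theirs. Of the 17 new regions with peaks in all 3 dms3 lists, 14, 14, 9, 14, 14 and 13 had a peak in the same 6 lists, with 3 in met1 and 3 with ZF-DMS3. Of the 26 places with the common sequence, 16, 18, 5, 15, 15 and 9 had a peak in those 6 lists, 0 in met1, which lacks the CG methyltransferase, and 1 with ZF-DMS3. MORC4 replicate 2 held a peak at 58.2% of kept, 36.1% of lost and 11.1% of new regions. Lists without a tag held a peak at 15 and 112 of the 6424 wild-type regions, at 35 and 100 of the 5748 dms3 regions and at 1 and 1 of the 108 new regions. These shares are descriptions of single lists with exact (Clopper-Pearson) intervals over regions, and the background samples used in each peak call are not given in the sources used here.

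**Figure D4:**
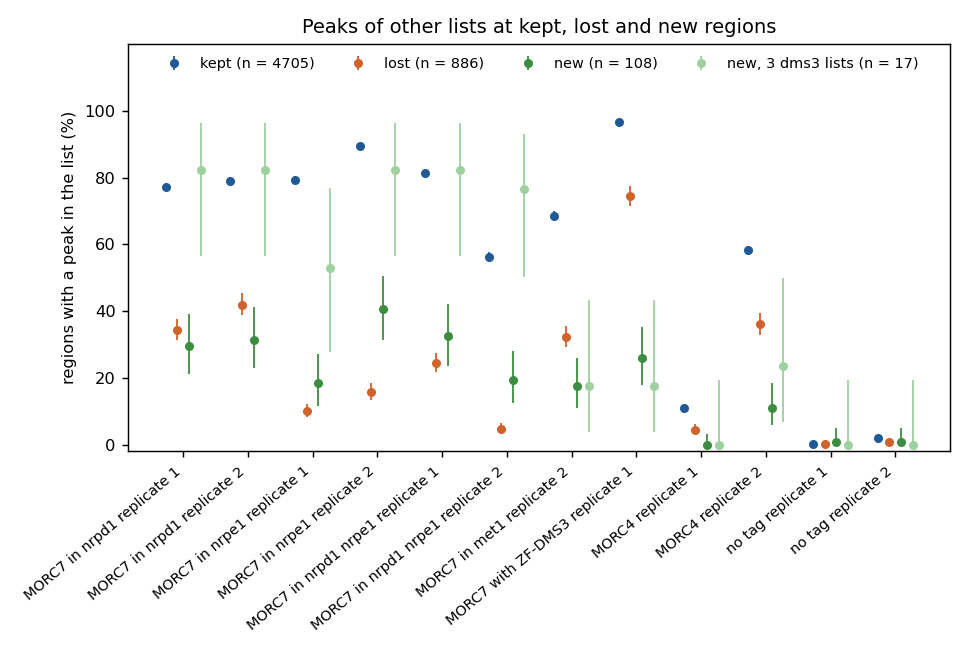
Points give the percentage of kept, lost and new regions, and of the new regions present in all 3 dms3 lists, that overlap a peak of each other list (x axis), with exact 95% intervals over regions. Kept regions lie above lost regions in every MORC7 list, and the 17 new regions of all 3 dms3 lists reach 82.4% in both nrpd1 lists.

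Where MORC7 had a peak in all 6 lists, few regions passed the test for a difference in fold enrichment. The 8 regions with the highest ranks were all pericentromeric, and 2 of them lay near AT2G04940 and AT3G32040. Their folds ran from 5.95 to 6.13, from 4.70 to 6.49 and from 8.48 to 8.54 in wild-type replicates 1, 2 and 3, and from 7.23 to 7.33, 6.66 to 6.67 and 6.56 to 6.65 in dms3 replicates 1, 2 and 3. In 5 of the 6 lists, all but wild-type replicate 2, the highest fold was shared by 13 to 62 peaks, so these values lie at or near a ceiling. Over all 2109 shared regions, fold was quantile-normalized on the log2 scale and tested with limma, and the median log2 difference of dms3 from wild type was -0.01 (quartiles of -0.17 and 0.16). The normalized values of the genotypes did not overlap in 528 regions (25.0%). At a Benjamini-Hochberg adjusted p under 0.05 (limma), 7 regions (0.332%) had a higher and 7 (0.332%) a lower fold in dms3, and 366 passed an unadjusted p of 0.05. The 14 calls hung on the scaling and on single libraries. Median centring called 192 higher and 33 lower, of which 13 were among the 14. With no normalization no region passed, although all 14 kept their direction and 95 regions passed an unadjusted p of 0.05. No region passed without wild-type replicate 1 or without any 1 of the dms3 replicates (212 to 364 at an unadjusted p under 0.05, limma), and 291 and 109 passed without wild-type replicates 2 and 3. In pericentromeres the median log2 difference was 0.03 over 608 regions and on arms -0.04 over 1501.

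Of the 5 regions with the largest called rise, 4 lay on arms and 1 in a pericentromere, and 2 had a pseudogene as the nearest gene. At chr3:16065300-16067968, near AT3G44428, folds were 3.11, 2.29 and 4.90 in wild type and 6.24, 6.46 and 6.00 in dms3, with a normalized log2 difference of 1.00 (SE 0.18, adjusted p = 0.0417, limma). At chr3:16038040-16039860, close by near the pseudogene AT3G44390, wild-type folds were 2.79, 2.30 and 4.33 and dms3 folds 5.68, 6.07 and 5.50. At chr5:12582714-12587185, 14 bp from the pseudogene AT5G33315, wild-type folds were 3.32, 2.46 and 4.50 and dms3 folds 6.46, 6.42 and 5.71. Near AT3G07685 (MIR2933b, a microRNA locus) wild-type folds were 3.29, 2.43 and 5.06 and dms3 folds 6.65, 6.44 and 6.17. Near AT4G09350 (NdhT, of the chloroplast NADH dehydrogenase-like complex) wild-type folds were 4.51, 3.02 and 6.27 and dms3 folds 7.14, 6.66 and 6.56. The dms3 values at AT4G09350 lay near the highest folds of their lists (7.33, 6.67 and 6.65), so the size of that rise cannot be read. Regions were named here only where the groups did not overlap, so their separation was fixed by the choice. The summit of the first of them is printed here with CG in capitals, of which it holds none.
AT3G44428, chr3:16066973-16067092: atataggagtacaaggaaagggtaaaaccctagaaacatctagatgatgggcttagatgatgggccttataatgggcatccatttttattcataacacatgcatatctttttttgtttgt

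Of the 7 regions with a called fall, 4 are described, all on arms and 3 of them just upstream of genes. Upstream of AT2G31450 (ATNTH1, a DNA glycosylase of base excision repair), 264 bp from the gene, folds were 5.81, 3.54 and 7.47 in wild type and 2.87, 3.34 and 2.82 in dms3 (log2 difference of -0.89, SE 0.15, adjusted p = 0.0417, limma). Upstream of AT1G55430, 176 bp from the gene, they were 5.70, 3.58 and 6.54 against 2.36, 3.20 and 2.68. Upstream of AT1G60270 (BGLU6, of the beta-glucosidase family) they were 5.16, 4.38 and 8.09 against 3.88, 3.31 and 3.00, and near AT1G59171 they were 4.12, 3.18 and 6.10 against 2.38, 2.16 and 2.18. For AT1G55430 and AT2G31450 the gap between the lowest wild-type and the highest dms3 value was small, and wild-type replicate 2 set it.

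**Figure D5:**
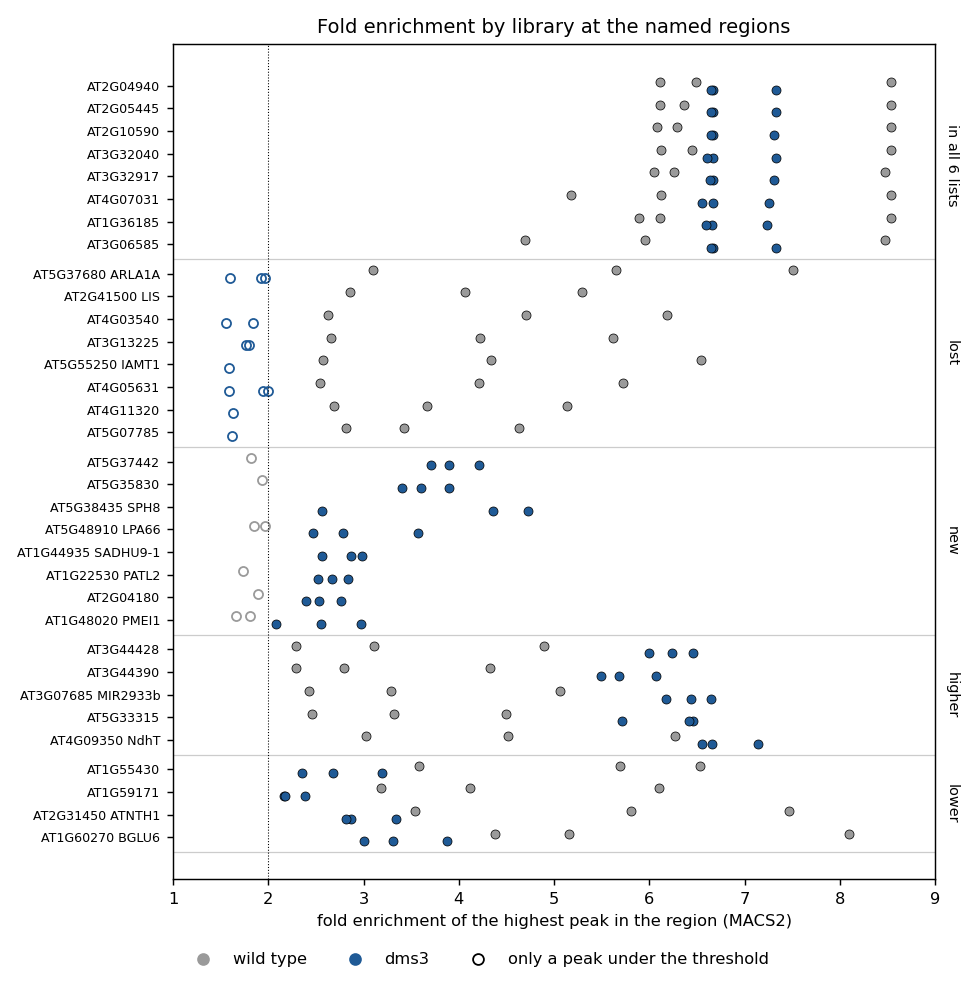
The x axis gives the MACS2 fold enrichment of the highest peak in each named region, the rows give the regions by their nearest gene, with 1 point for each library that has a peak, open where that peak is under the threshold, and a dotted line at a fold of 2. The labels higher and lower mark regions called for a difference between dms3 and wild type. The rules that chose the regions fix the side on which the genotypes lie, and the plot shows the spread of the libraries, such as wild-type folds from 3.10 to 7.51 at AT5G37680.

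Of 12 genes known to be controlled by DNA methylation, 8 had a wild-type region within 1000 bp, which was kept at 5 of them, in 1 dms3 list at 2 and lost at 1 (62.5% kept). Of the 27444 protein-coding genes, 6598 had such a region, and it was kept at 4879 of them (73.9%). SDC (AT2G17690), an F-box gene silenced by methylation of repeats in its promoter, had folds of 3.85, 2.78 and 7.22 in wild type and 5.26, 4.95 and 3.79 in dms3, so the groups overlapped. QQS (AT3G30720), an orphan gene that varies epigenetically, had 4.19, 2.79 and 7.56 in wild type and 2.74, 2.92 and 2.30 in dms3. ROS1 (AT2G36490), the DNA demethylase whose promoter senses methylation, had 3.35, 2.66 and 4.43 in wild type and 2.77, 3.07 and 2.30 in dms3. FWA (AT4G25530), the imprinted homeobox gene with methylated promoter repeats, had peaks of 2.06 and 3.37 in wild-type replicates 1 and 3 and of 2.18 in dms3 replicate 1 alone. CML41 (AT3G50770), a calmodulin-like gene, had peaks of 3.57 and 4.17 in the same wild-type lists and of 2.40 in dms3 replicate 2 alone. The region at IBM1 (AT3G07610), a histone demethylase gene with a methylated intron, had folds of 2.48 and 2.97 in wild-type replicates 1 and 3 and no dms3 peak above the threshold.

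Among 26 genes of RdDM, DNA methylation and the MORC family, 9 had a wild-type region, of which 7 (77.8%) were kept, near the 73.9% of all genes with a region, 1 was in 1 dms3 list and 1 was lost. CLSY1 (AT3G42670), a chromatin remodeller of polymerase IV recruitment, had folds of 5.80, 4.62 and 8.49 in wild type and 7.27, 6.35 and 6.53 in dms3. MORC6 (AT1G19100) had 5.28, 4.78 and 8.39 in wild type and 6.72, 5.60 and 5.09 in dms3. MORC7 itself (AT4G24970), whose sequence the transgene also carries, had 6.03, 6.53 and 5.01 in wild type and 4.36, 6.57 and 6.25 in dms3. The lost region was that of IDN2 (AT3G48670), a protein that binds double-stranded RNA, and it was weak, with folds of 2.09 and 2.03 in wild-type replicates 1 and 2. NRPD2A (AT3G23780), the second subunit of both polymerases, had peaks of 3.36 and 4.65 in wild-type replicates 1 and 3 and of 2.22 in dms3 replicate 1.

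Base composition differed little between the classes. In the 300 bases around the summit, the median GC content was 33.3% in kept, 31.7% in lost and 34.8% in new regions, against 36.3% over all 300-base windows of the 5 chromosomes. The median number of CG dinucleotides was 1.67, 2.00 and 2.33 in each 100 bases, against 2.00 over all windows. The letters TATAAA, counted on either strand, were found in 43.6% of kept, 51.9% of lost and 33.3% of new regions, and in 35.0% of all windows. GAGAGAGA was found in 15.7% of kept and 10.4% of lost regions, in 13 of the 108 new ones and in 4.71% of all windows, CACGTG in 11.5%, 8.01% and 16.7% against 3.26%, and TGGGCC in 13.1%, 14.0% and 11.1% against 4.53%. AAACCCTA was found in 5.53%, 5.64% and 2.78% against 3.88%. Both strands were searched for each motif, and none contains another. Words of 50 bases, the read length, with a second copy in the genome were present near 26.2% of kept, 29.0% of lost and 21.3% of new summits, near 11 of the 17 new summits of all 3 dms3 lists (64.7%), and in 16.0% of windows sampled across the chromosomes. Only reads with 1 perfect match were kept by the authors, so enrichment within repeats rests on their unique stretches.

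Genes next to lost regions had a lower median expression in floral tissue than those next to kept regions. RNA-seq of WT plants, a group apart from the MORC7-FLAG plants called wild type above, gave a median TPM, a transcript count scaled for length and library size, of 4.37 over 328 genes with a lost region upstream and 6.61 over 1416 genes with a kept one, each gene as the mean of 3 libraries, and the difference was not tested. Genes with a new region inside them had a median of 9.66 TPM (n = 42), those with a lost region inside 3.26 TPM (n = 140) and those with a kept region inside 6.13 TPM (n = 829). Genes with a region in 1 dms3 list had medians of 9.25 TPM where it lay upstream (n = 311) and 6.07 TPM where it lay inside (n = 217). The upstream median of that class was above those of both the kept and the lost class. Over all 26712 protein-coding genes with values the median was 3.43 TPM. Expression in dms3 was not analysed here.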

How the data were processed

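ChIP-seq reads (50 bp) were mapped by the authors to TAIR10 using Bowtie2 2.1.0, retaining those with 1 perfect match, duplicates were discarded (SAMtools 1.9), and MACS2 2.1.1 called the peaks of each library, for which the authors deposited fold enrichment as a ratio and significance as −log10 q. The controls and other options of these calls are not given in the sources used here. The authors also deposited TPM for WT RNA-seq, for which their processing notes name RSEM 1.3.1. Chromosome lengths of the RefSeq assembly TAIR10.1 were compared with the lists, and peaks reach the last base of 4 chromosomes and none passes an end, so its sequence and gene annotation were used. That annotation holds no transposable elements.

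Peaks with −log10 q above 2 and fold above 2 were kept, entries with the same start and end once (highest fold), and overlaps of at least 1 bp merged. Peaks in at least 2 of 3 lists made a region. Pericentromeres were runs of 100 kb windows (averaged over 11) with coding density under 50% of the chromosome median. Shares of lists were compared by two-sided exact permutation tests, and log2 fold at regions with a peak in all 6 lists by limma 3.58.1 with a trend in R 4.3.3. Regions are not replicates, so classes of regions carry no test. Named regions were the 8 highest-ranked kept in all lists, the 8 lost and the 8 new, and the 5 largest called rises and falls without overlap between groups. Of these, 1 region that this rule names is not reported here. Members, gene lists and rules were chosen with earlier results of these data known. The group of shared sequence, its places and the values within each form of list and on the same region set were chosen after the peaks were seen. Scripts used Python 3.11.15, NumPy 2.4.6, SciPy 1.17.1 and matplotlib 3.10.9 and were tested on simulated data. Alternatives were a stricter threshold, every deposited peak, 2000 top peaks a list by −log10 q, each library left out, removal of peaks found without a tag, 50% overlap, other numbers of libraries, other windows and scalings, and the replicate number as a block.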

Additional observations from a re-analysis of the deposited data

How the results depend on the processing

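The kept share of 73.2% stayed within the spread between dms3 libraries (SD 10.1 points) under 10 of 15 alternatives. It was 58.0% when 1 library sufficed, and ran from 53.7% to 89.3% with a library left out. Within lists of several summits it was 61.6%, where 1 wild-type list defined the intervals and both dms3 lists were required. New regions (108) numbered 66 at the stricter threshold, 300 with all deposited peaks, 303 with 2000 peaks a list, 694 when 1 library sufficed, 17 when all 3 were needed and 341 within lists of several summits, and from 19 to 561 with a library left out. None of the differences between genotypes tested by permutation could pass p = 0.05 under any alternative, given 3 libraries. The upstream share difference kept its direction under all 14 alternatives and ran from -4.59 to -2.21 points with a library left out. The recovery difference turned to -12.5 points within lists of several summits (-7.48 on the same region set), and ran from -8.09 to 11.2 with a library left out. The pericentromere difference then ran from -0.0195 to 6.34 points, and was 0.0146 with all deposited peaks. The coding gene difference turned to 2.01 points with all deposited peaks and 1.39 within lists of several summits, and ran from -3.47 to 3.01. The fold rank difference turned to 5.50 at the stricter threshold, 0.92 between narrower classes at the ends and 20.7 within lists of several summits (on the same region set 9.97, and 5.42 within lists of 1 summit), and ran from -9.58 to 8.28. The overlap within minus between genotypes (1.72 points) was 5.97 at the stricter threshold and 11.1 with 2000 peaks a list (exact permutation p = 0.1 for both, the smallest possible), turned to -0.68 with all deposited peaks, and ran from -5.60 to 10.2. Fold calls (14) numbered 0 with all deposited peaks (397 at an unadjusted p under 0.05), 26 with 2000 peaks a list, 32 without peaks found without a tag, 225 with median centring (85.3% higher in dms3, against 7 of 14), 0 without normalization (95) and 49 where a peak in 2 lists of each genotype sufficed, and from 0 to 291 with a library left out. Only the number is shared between same-numbered libraries, whose deviations from the group means correlated by -0.52, 0.00 and -0.42 over shared regions. With the replicate number as a block, limma made 21 calls, 12 of them among the 14, and the paired permutation tests (differences of 6.33, 3.07, -0.42, -3.76 and -1.63 points) changed no call.

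Depth is unknown for every list, and a region under the threshold in 1 genotype is not shown to lack MORC7. With 3 libraries a genotype the permutation tests cannot go below p = 0.1. For held-out recovery they also set wild-type values from 1 set each against dms3 means over 3 sets. The 2 forms of list cross the genotypes unevenly, and the closest lists across genotypes share a form. In 5 of the 6 lists the highest fold is shared by many peaks, so differences at the strongest sites cannot be read from it. Transgene dose in dms3 was not fixed.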
